A study of Mus musculus with 20 samples.

Results

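Expression of 10 genes of fasting glucose production was followed through 20 liver RNA-seq libraries of mice fasted for 24 h. They are the gluconeogenic enzymes and transporter Pck1, Pcx, Fbp1, G6pc and Slc37a4, the amino acid enzyme Tat, and the regulators Gcgr, Sik1, Creb3l3 and Foxo1. They were chosen by name, as the rows of the count table that carry these symbols, and the glucose-6-phosphatase gene is listed there as G6pc. All 10 were found among the 56748 genes of the table, and all 10 were among the 15669 genes with enough counts to test. The mutant groups were Cpt1DKO (CPT1A;CPT1B liver-specific double KO), Cpt2KO (CPT2 liver-specific KO), TKO (CPT1A/1B/2 liver-specific triple KO) and Cpt2PparaDKO (liver-specific double KO of PPAR;CPT2, where the series text names the gene as Ppara). Control was the CPT1A/1B/2 triple floxed group, described as littermates. Each group had 4 libraries. No source used here names the driver of recombination in liver or the age and sex of the mice. Separate animals for the 4 libraries are not stated either, so a p-value here sets a difference against library-to-library spread, part of which may be technical. Every mutant group was set against the same Control libraries, and a difference of line between groups cannot be told apart from the genotype.

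During a fast the liver makes glucose from lactate, glycerol and amino acids. Pyruvate carboxylase (Pcx) turns pyruvate into oxaloacetate in mitochondria, phosphoenolpyruvate carboxykinase (Pck1) carries oxaloacetate on to phosphoenolpyruvate, fructose-1,6-bisphosphatase (Fbp1) reverses a committed step of glycolysis, and glucose-6-phosphatase (G6pc), fed by the glucose-6-phosphate translocase of the endoplasmic reticulum (Slc37a4), releases free glucose. Glucagon acts through its receptor (Gcgr) and cAMP on the factor CREB, the kinase SIK1 restrains CREB's coactivators, FOXO1 works on many of the same promoters when insulin is low, and CREB3L3 is a membrane-bound liver factor of fasting lipid and glucose metabolism. Acetyl-CoA from fatty acid oxidation activates pyruvate carboxylase, and the carnitine palmitoyltransferases CPT1 and CPT2 bring long-chain fatty acids into mitochondria for that oxidation. PPARalpha, encoded by Ppara, is the fatty acid receptor that turns on many fasting genes of the liver.

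The promoters of Fbp1, G6pc, Slc37a4 and Creb3l3 are shown because the larger or better separated differences below lie in these genes, and that of Pck1 because its enzyme commits oxaloacetate to the pathway. Each is the RefSeq window of 250 bases before and 50 after an annotated start, on GRCm38.p6, and capitals mark matches to the searched motifs on either strand.
Pck1 (chr2:173152823-173153122, plus strand): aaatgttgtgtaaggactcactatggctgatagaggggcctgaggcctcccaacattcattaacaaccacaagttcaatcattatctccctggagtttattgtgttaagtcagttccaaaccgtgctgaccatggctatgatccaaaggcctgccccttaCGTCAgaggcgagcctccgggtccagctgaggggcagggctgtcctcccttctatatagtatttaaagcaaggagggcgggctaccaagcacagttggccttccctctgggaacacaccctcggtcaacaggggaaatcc
Fbp1 (chr13:62888233-62888532, minus strand): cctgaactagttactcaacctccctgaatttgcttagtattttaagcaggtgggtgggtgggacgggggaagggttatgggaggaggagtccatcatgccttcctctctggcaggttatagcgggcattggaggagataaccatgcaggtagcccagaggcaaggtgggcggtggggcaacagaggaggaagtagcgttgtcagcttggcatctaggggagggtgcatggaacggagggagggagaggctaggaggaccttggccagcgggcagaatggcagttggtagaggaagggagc
G6pc (chr11:101367466-101367765, plus strand): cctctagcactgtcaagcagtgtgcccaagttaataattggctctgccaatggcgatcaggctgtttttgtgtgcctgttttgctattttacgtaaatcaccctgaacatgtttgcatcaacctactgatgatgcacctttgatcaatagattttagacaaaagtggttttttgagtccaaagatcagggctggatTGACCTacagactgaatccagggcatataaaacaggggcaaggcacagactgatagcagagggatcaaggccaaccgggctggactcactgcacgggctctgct
Slc37a4 (chr9:44396696-44396995, plus strand): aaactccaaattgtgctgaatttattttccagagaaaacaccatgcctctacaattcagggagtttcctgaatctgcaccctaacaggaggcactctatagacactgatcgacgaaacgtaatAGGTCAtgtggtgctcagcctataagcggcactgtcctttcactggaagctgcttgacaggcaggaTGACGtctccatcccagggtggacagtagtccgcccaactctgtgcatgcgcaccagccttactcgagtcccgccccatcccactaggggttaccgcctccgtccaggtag
Creb3l3 (chr10:81092542-81092841, minus strand): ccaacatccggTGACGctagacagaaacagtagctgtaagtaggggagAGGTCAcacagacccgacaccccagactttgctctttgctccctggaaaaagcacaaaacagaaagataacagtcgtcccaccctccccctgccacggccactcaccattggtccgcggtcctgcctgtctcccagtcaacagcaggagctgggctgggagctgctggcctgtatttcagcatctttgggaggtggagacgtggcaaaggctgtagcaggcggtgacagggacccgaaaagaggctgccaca
Windows existed for 9 of the 10 genes, 13 windows in all. The motifs were TGACG (CRE core, in 20.8% of all 32851 mouse windows), the full CRE TGACGTCA (1.79%), the FOXO site GTAAACA (3.65%), the glucocorticoid core TGTTCT (19%), the nuclear receptor core AGGTCA (16.3%), and a direct repeat of the last with 1 base between the copies (0.0396%). A full CRE contains the CRE core, and the direct repeat contains its core. The Pck1 window held a CRE core on the opposite strand at -90 to -86 from the start. In the G6pc window a nuclear receptor core lay on the opposite strand at -54 to -49. The Slc37a4 window shown held a nuclear receptor core at -127 to -122 and a CRE core at -61 to -57, both on the gene's strand, and the Creb3l3 window held a CRE core at -239 to -235 and a nuclear receptor core at -202 to -197. A second Pcx window, not shown, held a nuclear receptor core on the opposite strand at 40 to 45, and other windows of Slc37a4 and Creb3l3 held further matches. No searched motif was found in the windows of Fbp1, Tat, Gcgr and Foxo1. A match is only a match of letters in this window.

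Depth was 14129595 to 20273303 counts in all libraries but Cpt2PparaDKO 1, which had 36452673. The targeted genes checked the labels over whole genes, without regard to which exon was deleted. Mean Cpt1a was 155 CPM in Cpt1DKO and 137 CPM in TKO, against 1038 CPM in Control. Mean Cpt2 was 131 CPM in Cpt2KO, 103 CPM in TKO and 33.9 CPM in Cpt2PparaDKO, against 249 CPM in Control, and mean Ppara was 73.2 CPM in Cpt2PparaDKO, against 233 CPM in Control. Cpt1b, at 0.881 ± 0.217 CPM in Cpt1DKO and 2.8 ± 0.308 CPM in TKO, against 0.543 ± 0.215 CPM in Control (SD, n = 4 each), was not lower in either group labelled as lacking it. It was higher in TKO (log2 fold change 2.37, adjusted p = 0.000111), as in Cpt2KO (2.86, adjusted p = 9.44e-06). At a Control level so near 0 a fall could hardly be seen, and a deleted exon is not read here. Whole-gene RNA thus neither bears out nor contradicts the CPT1B part of these labels. CPM values are counts after scaling all libraries to the same size with TMM factors. Library 3 of Cpt2KO and library 4 of Cpt2PparaDKO had a female pattern, with 981 and 1266 CPM of Xist and at most 1 count of any Y-linked gene, while Xist was at most 1.05 CPM elsewhere. The 10 hepatocyte markers, 9 of them tested and none at 0, summed to 70647 to 79297 CPM in Cpt1DKO, 43405 to 68906 in Cpt2KO, 38057 to 64487 in TKO and 33370.2 to 38973 in Cpt2PparaDKO, against 83353 to 101826 in Control. The 10 macrophage and Kupffer cell markers summed to 211 to 286 CPM in Cpt1DKO, 227 to 512 in Cpt2KO, 173 to 312 in TKO and 457 to 528 in Cpt2PparaDKO, against 209 to 424 in Control. Stellate cell markers, all 9 tested, summed to 241 to 297 CPM in Cpt1DKO, 248 to 344 in Cpt2KO, 206 to 252 in TKO and 256 to 298 in Cpt2PparaDKO, against 194 to 219 in Control. Cholangiocyte markers, 5 of 6 tested, summed to 18.7 to 26.5 CPM in Cpt1DKO, 7.61 to 15.1 in Cpt2KO, 10.8 to 20.5 in TKO and 20.3 to 50 in Cpt2PparaDKO, against 29.7 to 35.5 in Control. Neutrophil markers, 3 of 6 tested, summed to 5.74 to 9.63 CPM in Cpt2PparaDKO, against 2.4 to 5.14 in Control. Markers of kidney, which also makes glucose, were at or near 0. Hepatocyte marker sums were lower in every mutant group than in Control. Such a sum mostly follows its most abundant genes. Mean albumin RNA (Alb) was 62833 CPM in Control, against 20594 CPM in Cpt2PparaDKO and 49384 CPM in Cpt1DKO. Hnf4a, a regulator in hepatocytes, was not lower in Cpt1DKO, at 970 CPM against 944 CPM in Control. A lower sum thus does not by itself show a fall of hepatocyte genes in general. The part of the cell marker differences in the results below was not tested. In bulk liver, fewer cells of a type, less RNA per cell and lower RNA of a few abundant genes cannot be told apart by such sums.

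The groups labelled as lacking CPT2, alone or with other genes, shared lower RNA of 4 genes of glucose production. Pck1, Fbp1, G6pc and Slc37a4 fell against Control in Cpt2KO, in TKO and in Cpt2PparaDKO. Pcx, Gcgr, Creb3l3 and Foxo1 fell in addition in Cpt2PparaDKO. In Cpt1DKO none of the 10 was called, though its Fbp1 libraries were also all below Control. Set directly against Cpt1DKO over all libraries, Slc37a4 alone of the 4 genes was called lower in Cpt2KO, and Slc37a4 and G6pc in TKO. In Cpt2PparaDKO all of the 4 but Fbp1 were called lower than in Cpt1DKO. Without the female-pattern libraries all 4 genes were called lower in Cpt2KO than in Cpt1DKO (adjusted p at most 0.0196). Over all libraries, and without a replicate block, no gene of the set was called higher in any comparison. By edgeR's quasi-likelihood test at an adjusted p under 0.05, 4 of 10 were called in Cpt2KO against Control, all lower, where 33.4% of all tested genes were called (16.2% higher, 17.2% lower). In TKO 4 of 10 were called lower, with 27.4% of all genes called (13.0% higher, 14.4% lower), and in Cpt2PparaDKO 8 of 10, with 32.5% of all genes called (14.9% higher, 17.6% lower). In Cpt1DKO 0 of 10 were called, with 5.55% of all genes called (2.44% higher, 3.10% lower); 2 had an unadjusted p under 0.05, and DESeq2 called 0. The median log2 fold change of the 10 genes was -1.08 in Cpt2PparaDKO, -0.47 in TKO, -0.90 in Cpt2KO and 0.03 in Cpt1DKO, beside 0.00 in Cpt2PparaDKO and -0.01 in each of the others over all tested genes. Without the 2 female-pattern libraries the same 8 genes were called lower in Cpt2PparaDKO, where 28% of all genes were called, with Fbp1 at -0.91, adjusted p = 0.00786 and G6pc at -2.13, adjusted p = 0.00165. In Cpt2KO 8 of 10 were then called, Pcx, Tat and Foxo1 lower and Creb3l3 higher beside the 4 above, where 36% of all genes were called, with Fbp1 at -1.73, adjusted p = 2.3e-05 and G6pc at -1.85, adjusted p = 0.00269.

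**Figure D1:**
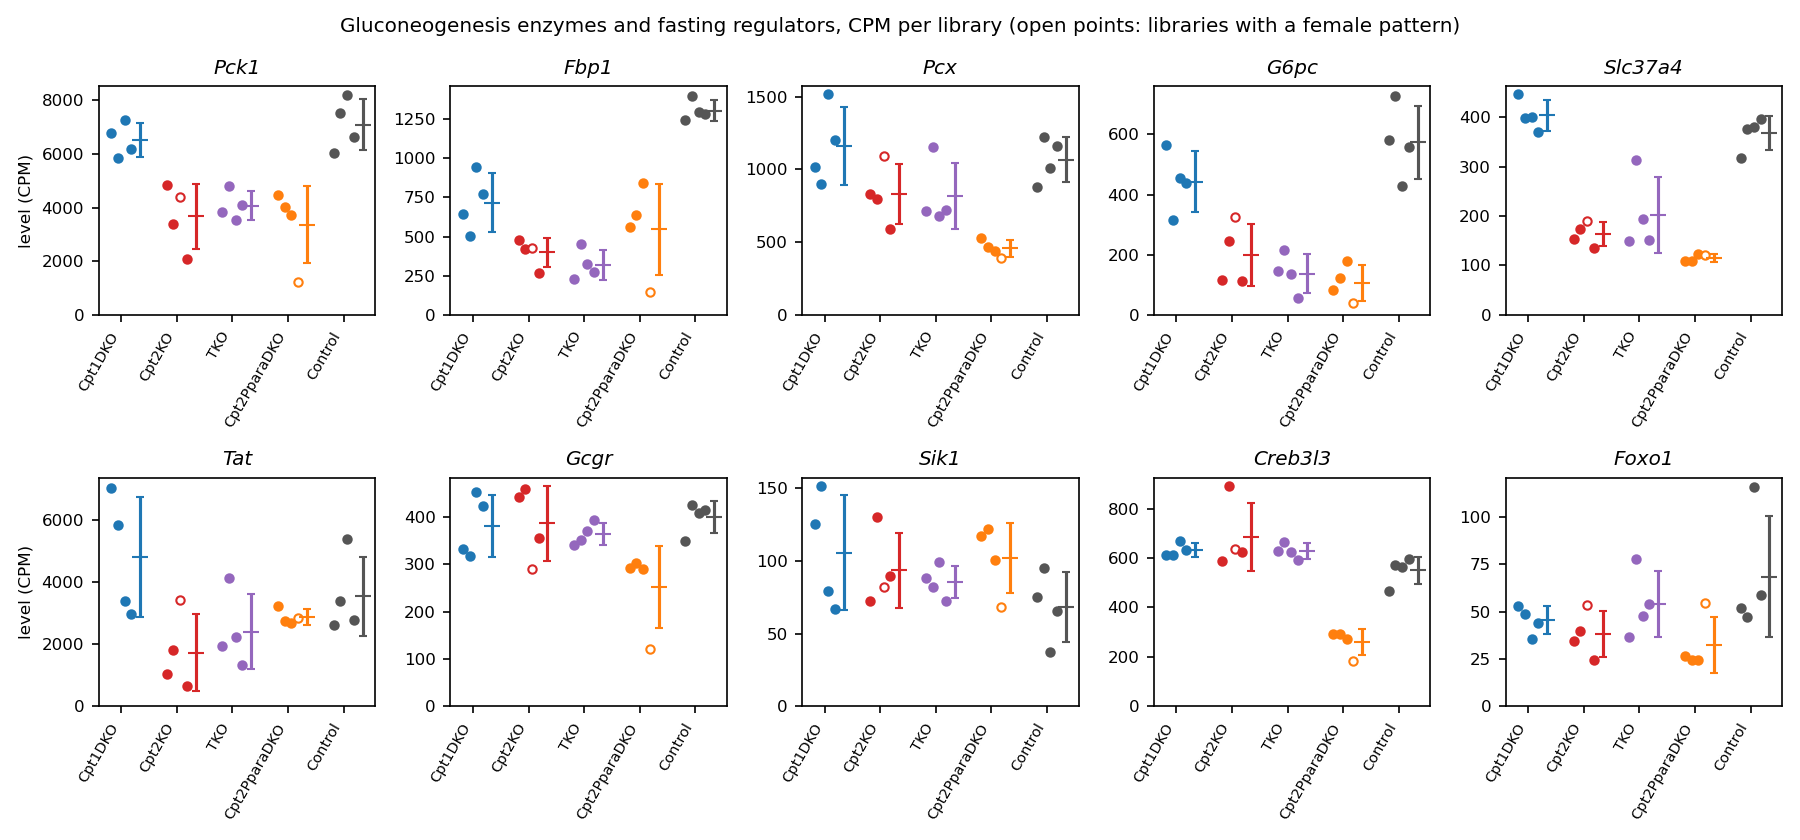
CPM of each of the 10 genes in every library, with the groups from left to right and the group mean ± SD (n = 4) beside the points; open points are the 2 libraries with a female pattern. G6pc lies between 40.3 and 324 CPM in all libraries of Cpt2KO, TKO and Cpt2PparaDKO and between 427 and 727 CPM in Control.

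Pck1 and Pcx, at the entry of the pathway, were called lower in different sets of groups over all libraries. Whether the 2 genes differed in their changes was not tested. Pck1 (ENSMUSG00000027513, chr2:172994841-173001066, plus strand on GRCm39, as are all gene positions below) had 6788, 5854, 7261 and 6191 CPM in Cpt1DKO, 4833, 3393, 4390.1 and 2101 in Cpt2KO, 3834, 4792, 3541 and 4109 in TKO and 4468, 4028, 3729 and 1242 in Cpt2PparaDKO, against 6027, 7530.1, 8191 and 6631 in Control. Every library of Cpt2KO, TKO and Cpt2PparaDKO was below every Control library, those of Cpt1DKO overlapped Control, and the female-pattern library 4 of Cpt2PparaDKO was the lowest. Pck1 fell 1.93-fold in Cpt2KO (log2 fold change -0.95, SE 0.29, adjusted p = 0.0137), 1.74-fold in TKO (log2 fold change -0.80, SE 0.28, adjusted p = 0.0405) and 2.11-fold in Cpt2PparaDKO (log2 fold change -1.08, SE 0.29, adjusted p = 0.00657). In Cpt1DKO its difference was not called (log2 fold change -0.12, 95% interval -0.68 to 0.43, adjusted p = 0.851). The TKO call was lost in 7 of 14 other settings, among them without TKO replicate 1, 3 or 4 or Control replicate 2, 3 or 4 (adjusted p 0.0658 to 0.104), and the Cpt2KO call without Cpt2KO replicate 4 (-0.75, adjusted p = 0.0532) and without the count filter (-0.92, adjusted p = 0.0576). Without the female-pattern libraries the Pck1 difference in Cpt2PparaDKO was -0.77, adjusted p = 0.00779.

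Pcx (ENSMUSG00000024892, chr19:4560500-4671780, plus strand) had 1016, 900.4, 1516 and 1203 CPM in Cpt1DKO, 833, 799, 1093 and 590.2 in Cpt2KO, 713, 1157, 680.4 and 724 in TKO and 528, 469, 442 and 389.5 in Cpt2PparaDKO, against 876, 1222, 1011 and 1159 in Control. The Cpt2PparaDKO libraries lay below those of every other group, and the others overlapped. Pcx fell 2.33-fold in Cpt2PparaDKO against Control (log2 fold change -1.22, SE 0.21, adjusted p = 0.000142). The differences in Cpt2KO (log2 fold change -0.36, 95% interval -0.76 to 0.03, adjusted p = 0.181) and TKO (log2 fold change -0.38, 95% interval -0.78 to 0.02, adjusted p = 0.175) were not called, although TKO replicate 2, at 1157 CPM, stood apart from the other 3 TKO libraries and without it the TKO difference was -0.60, adjusted p = 0.0341. Without the female-pattern libraries Pcx was called lower in Cpt2KO (-0.52, adjusted p = 0.0495).

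Fbp1 (ENSMUSG00000069805, chr13:63012567-63036096, minus strand) had 646, 505, 945 and 774 CPM in Cpt1DKO, 478, 424, 428 and 266 in Cpt2KO, 227, 454, 322 and 275 in TKO and 560.2, 640.1, 841 and 145 in Cpt2PparaDKO, against 1244, 1399, 1297 and 1281 in Control. Control libraries were close together and above every mutant library, Cpt1DKO included, and library 4 of Cpt2PparaDKO was again the lowest. Fbp1 fell 3.27-fold in Cpt2KO (log2 fold change -1.71, SE 0.36, adjusted p = 0.00126), 4.09-fold in TKO (log2 fold change -2.03, SE 0.36, adjusted p = 0.000451) and 2.39-fold in Cpt2PparaDKO (log2 fold change -1.26, SE 0.36, adjusted p = 0.0115). In Cpt1DKO the difference was not called over all libraries (log2 fold change -0.86, SE 0.35, adjusted p = 0.163). It was called without the female-pattern libraries, neither of which is in either group compared (-0.86, adjusted p = 0.0177), and in a fit of the compared groups alone (-0.84, adjusted p = 0.0108).

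G6pc and Slc37a4, which work together at the endoplasmic reticulum membrane, were both lower in Cpt2KO, TKO and Cpt2PparaDKO. G6pc (ENSMUSG00000078650, chr11:101258387-101268729, plus strand) had 563, 315, 456 and 439 CPM in Cpt1DKO, 116, 245, 324 and 111 in Cpt2KO, 145, 214, 135 and 56 in TKO and 83.8, 121, 179.5 and 40.3 in Cpt2PparaDKO, against 582, 727, 427 and 557 in Control. Libraries of Cpt2KO, TKO and Cpt2PparaDKO were all below Control, and spread widely within their groups. It had the largest fall of the 10 genes in TKO and in Cpt2PparaDKO: 2.88-fold in Cpt2KO (log2 fold change -1.53, SE 0.45, adjusted p = 0.0143), 4.17-fold in TKO (log2 fold change -2.06, SE 0.46, adjusted p = 0.00282) and 5.4-fold in Cpt2PparaDKO (log2 fold change -2.43, SE 0.46, adjusted p = 0.000747). In Cpt1DKO the difference was not called (log2 fold change -0.37, 95% interval -1.23 to 0.49, adjusted p = 0.679).

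Slc37a4 (ENSMUSG00000032114, chr9:44308149-44314265, plus strand) had 446, 399, 399.6 and 369 CPM in Cpt1DKO, 154, 173, 191 and 136 in Cpt2KO, 149.9, 314, 195 and 151 in TKO and 108, 109, 124 and 122 in Cpt2PparaDKO, against 318, 376, 381 and 396 in Control. No library of Cpt2KO, TKO or Cpt2PparaDKO reached the Control range, which TKO replicate 2 came nearest to, and the Cpt2PparaDKO libraries were tightly grouped and lowest. Slc37a4 fell 2.25-fold in Cpt2KO (log2 fold change -1.17, SE 0.18, adjusted p = 4.71e-05), 1.82-fold in TKO (log2 fold change -0.86, SE 0.18, adjusted p = 0.00116) and 3.18-fold in Cpt2PparaDKO (log2 fold change -1.67, SE 0.18, adjusted p = 1.46e-06), and not in Cpt1DKO (log2 fold change 0.13, 95% interval -0.22 to 0.48, adjusted p = 0.715). All 3 calls held in all 14 other settings.

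**Figure D2:**
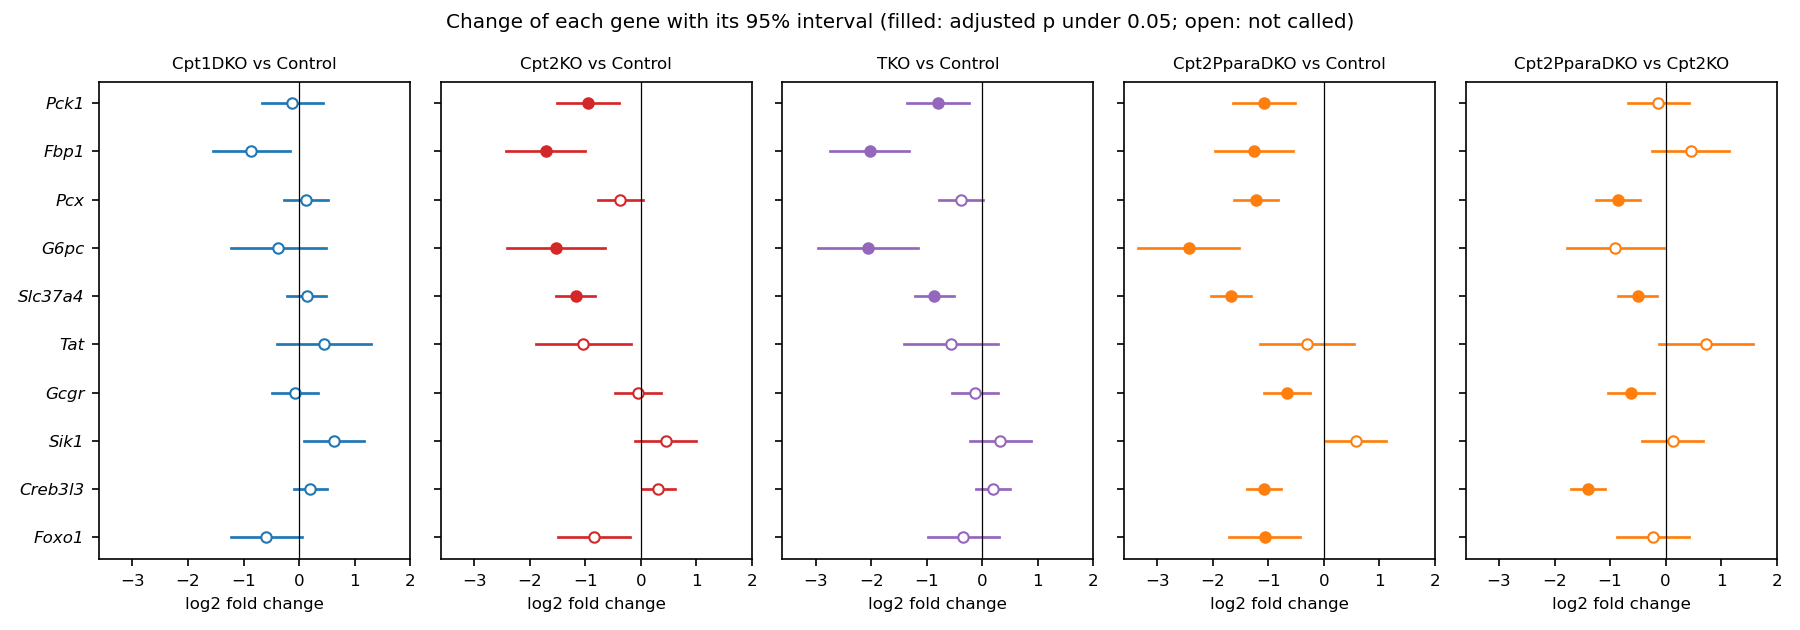
Log2 fold change of each gene (points) with its 95% interval (lines) in the 4 mutant groups against Control and in Cpt2PparaDKO against Cpt2KO; filled points have an adjusted p under 0.05. Fbp1 is at -1.71 in Cpt2KO, -2.03 in TKO and -1.26 in Cpt2PparaDKO, and Creb3l3 is called only in the 2 comparisons of Cpt2PparaDKO, at -1.08 and -1.39.

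Tat (ENSMUSG00000001670, chr8:110717069-110726435, plus strand), tyrosine aminotransferase, begins tyrosine breakdown and is a classical glucocorticoid-induced liver gene. It had 7029, 5815, 3401 and 2981 CPM in Cpt1DKO, 1042, 1809, 3433 and 642 in Cpt2KO, 1931, 4141, 2216 and 1331 in TKO and 3240.1, 2745, 2679 and 2843 in Cpt2PparaDKO, against 2622, 3396, 5384 and 2764 in Control. All mutant groups overlapped Control, and Cpt2KO spread from its replicate 4 at the bottom to its female-pattern replicate 3 at the top. No comparison with Control was called, the nearest being Cpt2KO (log2 fold change -1.03, SE 0.44, adjusted p = 0.0772); without the female-pattern libraries it was called (-1.59, adjusted p = 0.00931). Cpt2KO was lower than Cpt1DKO (log2 fold change -1.47, SE 0.44, adjusted p = 0.0322), a call lost in 7 of 14 other settings, including without replicate 1 or 2 of Cpt1DKO or replicate 1, 2 or 4 of Cpt2KO (adjusted p 0.0691 to 0.101).

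Among the regulators, Creb3l3 was low in the group without Ppara. Creb3l3 (ENSMUSG00000035041, chr10:80920158-80934708, minus strand) had 611, 612, 669.9 and 632 CPM in Cpt1DKO, 587, 890.3, 638 and 625 in Cpt2KO, 629.6, 666, 626 and 591 in TKO and 292, 294, 274 and 182 in Cpt2PparaDKO, against 469, 572, 565 and 595 in Control. Every Cpt2PparaDKO library was below every other library of the series, and Cpt2KO replicate 2 was the highest. Creb3l3 fell 2.11-fold in Cpt2PparaDKO against Control (log2 fold change -1.08, SE 0.15, adjusted p = 2.66e-05) and 2.63-fold against Cpt2KO (log2 fold change -1.39, SE 0.15, adjusted p = 9.29e-07). The differences from Control were not called in Cpt1DKO (log2 fold change 0.20, 95% interval -0.10 to 0.50, adjusted p = 0.481), Cpt2KO (log2 fold change 0.32, 95% interval 0.02 to 0.61, adjusted p = 0.116) and TKO (log2 fold change 0.19, 95% interval -0.11 to 0.49, adjusted p = 0.379); in Cpt2KO it was called higher without the female-pattern libraries (0.36, adjusted p = 0.0405).

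Gcgr (ENSMUSG00000025127, chr11:120421525-120429812, plus strand), the glucagon receptor, had 332, 318, 452 and 423 CPM in Cpt1DKO, 443, 459, 289 and 356 in Cpt2KO, 341, 351, 369.8 and 393 in TKO and 293, 304, 291 and 122 in Cpt2PparaDKO, against 350.1, 424, 409 and 415 in Control. The first 3 groups overlapped Control, and the Cpt2PparaDKO libraries were below it, library 4 far below the others. Gcgr fell 1.58-fold in Cpt2PparaDKO (log2 fold change -0.66, SE 0.21, adjusted p = 0.0206). The call was kept without the female-pattern libraries (-0.41, adjusted p = 0.0267) and lost without Control replicate 2 or 4 (adjusted p 0.0535 to 0.0563) and in the fit of the compared groups alone (-0.63, adjusted p = 0.0763). In the other groups the difference was not called, with log2 fold changes of -0.07 in Cpt1DKO, -0.05 in Cpt2KO and -0.14 in TKO.

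Foxo1 (ENSMUSG00000044167, chr3:52175757-52260642, plus strand) had the lowest level per gene length of the set and had 53.2, 48.8, 35.8 and 44.2 CPM in Cpt1DKO, 34.5, 40, 53.4 and 24.3 in Cpt2KO, 36.7, 77.8, 47.6 and 53.8 in TKO and 26.4, 24.5, 24.6 and 54.8 in Cpt2PparaDKO, against 51.9, 47.3, 116 and 58.6 in Control. Control replicate 3 stood far above the other Control libraries, library 4 of Cpt2PparaDKO stood above its own group and within the Control range, and the other groups overlapped Control. Foxo1 fell 2.1-fold in Cpt2PparaDKO (log2 fold change -1.07, SE 0.33, adjusted p = 0.0192). That call was lost in 6 of 14 other settings, among them without Control replicate 3 (-0.67, adjusted p = 0.104) and without Cpt2PparaDKO replicate 1, 2 or 3 (adjusted p 0.0609 to 0.063). In Cpt2KO the difference was not called (log2 fold change -0.84, SE 0.33, adjusted p = 0.0571) and was called without the female-pattern libraries (-1.05, adjusted p = 0.013).

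Sik1 (ENSMUSG00000024042, chr17:32063224-32074778, minus strand), the kinase induced by cAMP, had 125, 151, 79.1 and 66.7 CPM in Cpt1DKO, 72.1, 130.3, 81.7 and 89.7 in Cpt2KO, 87.9, 82, 99.3 and 72.6 in TKO and 117, 122, 100.5 and 68.5 in Cpt2PparaDKO, against 75.2, 95, 37.4 and 65.4 in Control. All groups overlapped, and Control had the lowest mean, 68.3 ± 24 CPM (SD, n = 4). Over all libraries, and without a replicate block, Sik1 was not called in any comparison. The differences from Control were all positive: 0.58 in Cpt2PparaDKO (0.122), 0.32 in TKO (0.426), 0.45 in Cpt2KO (0.233) and 0.63 in Cpt1DKO (adjusted p = 0.199). With the replicate number as a block, Sik1 was called higher in Cpt2PparaDKO against Control (0.59, adjusted p = 0.0459).

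Comparing Cpt2PparaDKO with Cpt2KO asks what the added loss of Ppara changed in Cpt2-deficient liver. Residual Cpt2 RNA also differed between these groups, at 33.9 CPM in Cpt2PparaDKO and 131 CPM in Cpt2KO (log2 fold change -1.95, SE 0.19, adjusted p = 1.39e-07), and cannot be told apart from the loss of Ppara. Creb3l3, Pcx, Gcgr and Slc37a4 were lower, and the other 6 genes were not called. That made 4 of 10, where 24.4% of all tested genes were called (12.1% higher, 12.2% lower). Creb3l3 had the largest difference, given above, and Pcx averaged 457 ± 57.7 CPM in Cpt2PparaDKO and 829 ± 206 CPM in Cpt2KO (SD, n = 4 each; log2 fold change -0.86, SE 0.20, adjusted p = 0.00392). Both calls held in all 14 other settings. Gcgr (log2 fold change -0.62, SE 0.21, adjusted p = 0.0381) overlapped between the groups, and its call was lost in 6 of 14 settings, including without Cpt2PparaDKO replicate 4 (-0.37, adjusted p = 0.073) and without Cpt2KO replicate 1 or 2 (adjusted p 0.0928 to 0.118). The Slc37a4 libraries did not overlap (log2 fold change -0.50, SE 0.18, adjusted p = 0.0458), and its call was lost in 9 of 14 settings, those without the female-pattern libraries (-0.43, adjusted p = 0.131), without any 1 of Cpt2KO replicates 1 to 3 and without any 1 of the Cpt2PparaDKO libraries (adjusted p 0.0568 to 0.126) among them. Pck1 (log2 fold change -0.13, 95% interval -0.68 to 0.43, adjusted p = 0.786), G6pc (log2 fold change -0.91, 95% interval -1.77 to -0.04, adjusted p = 0.153) and Fbp1 (log2 fold change 0.45, 95% interval -0.24 to 1.14, adjusted p = 0.379) were not called. Without the female-pattern libraries Fbp1 (0.82, adjusted p = 0.0222) and Tat (1.32, adjusted p = 0.0414) were called higher in Cpt2PparaDKO, the Pck1 difference turned positive (0.26, adjusted p = 0.402), and the G6pc difference shrank (-0.28, adjusted p = 0.664).

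Between TKO and Cpt2KO none of the 10 genes passed the threshold. TKO against Cpt2KO gave 0 of 10 called, with 0.0511% of all genes called; 0 of the 10 had an unadjusted p under 0.05, and DESeq2 called 0. The largest differences were -0.53 for G6pc (95% interval -1.40 to 0.33) and 0.50 for Foxo1 (-0.14 to 1.15), intervals wide enough to hold differences of over 1 on the log2 scale. Against Cpt1DKO, 2 of 10 were lower in Cpt2KO (14.1% of all genes called, 6.71% lower): Slc37a4 (log2 fold change -1.30, SE 0.18, adjusted p = 0.000115) and Tat, given above. In TKO against Cpt1DKO 2 of 10 were lower (4.65% of all genes called, 2.06% lower), Slc37a4 (log2 fold change -1.0, SE 0.18, adjusted p = 0.00335) and G6pc (log2 fold change -1.69, SE 0.45, adjusted p = 0.0415). The G6pc call was lost in 7 of 14 settings, without Cpt1DKO replicate 1, 3 or 4 or TKO replicate 1, 3 or 4 among them (adjusted p 0.0927 to 0.108).

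Without the female-pattern libraries the counts of called genes were 6 of 10 in Cpt2KO against Cpt1DKO, where 20.4% of all genes were called, and 4 of 10 in TKO against Cpt1DKO, where 8.8% were called. Pck1 (-0.91, adjusted p = 0.00405) and Fbp1 (-0.87, adjusted p = 0.015) were then called lower in Cpt2KO than in Cpt1DKO. Over all libraries, Pck1 and Fbp1 of Cpt2KO and TKO lay below Cpt1DKO without overlap. Neither gene was called in that fit (Pck1 adjusted p = 0.056 in Cpt2KO and 0.179 in TKO, Fbp1 adjusted p = 0.119 in Cpt2KO and 0.0658 in TKO). In Cpt2KO against Cpt1DKO, Pck1 gained a call in 5 of 14 other settings and Fbp1 in 2. The comparisons that follow are over all libraries. Cpt2PparaDKO was lower than TKO in Creb3l3 (log2 fold change -1.27, SE 0.15, adjusted p = 4.26e-06), Pcx (log2 fold change -0.84, SE 0.20, adjusted p = 0.00567) and Slc37a4 (log2 fold change -0.81, SE 0.18, adjusted p = 0.00293), 3 of 10 with 19.3% of all genes called and 9.98% lower. Against Cpt1DKO it was lower in 6 of 10 (21.9% of all genes called, 11.3% lower), with log2 fold changes of -2.06 for G6pc, -1.80 for Slc37a4, -1.34 for Pcx, -1.28 for Creb3l3, -0.95 for Pck1 and -0.60 for Gcgr. Adjusted p-values of these ran to 0.0491, for Gcgr, whose call was lost in 10 of 14 settings, leaving out any 1 of Cpt1DKO replicates 1, 3 and 4 or Cpt2PparaDKO replicates 1, 3 and 4 (adjusted p 0.0502 to 0.135) among them.

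The interaction asks whether Cpt2 loss had another effect in livers labelled as lacking CPT1A;CPT1B (TKO minus Cpt1DKO) than in the others (Cpt2KO minus Control). It was called in 0 of the 10 genes, with 2.70% of all genes called, and DESeq2 called 0. Foxo1 alone had an unadjusted p under 0.05 (log2 fold change 1.09, SE 0.46, adjusted p = 0.218). For G6pc the difference of effects was -0.16 with a 95% interval of -1.38 to 1.06, which does not show the effects to be alike.

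**Figure D3:**
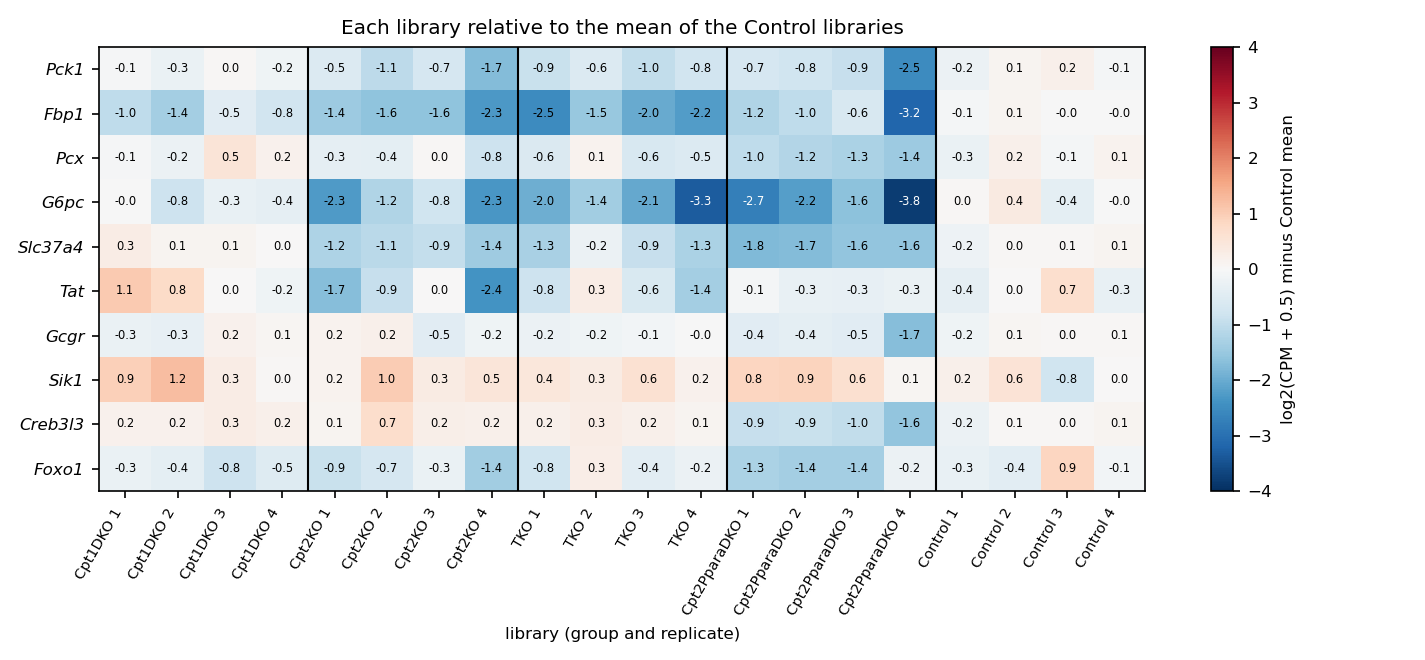
Log2(CPM + 0.5) of each gene in each of the 20 libraries minus the mean of the Control libraries; blue is below and red above the Control mean. G6pc reaches -3.8 and Fbp1 -3.2 in Cpt2PparaDKO 4, the library with the lowest Pck1, Gcgr and Creb3l3.

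By level, the set spanned a wide range, read on the deposited FPKM values, which divide by gene length. Pck1 (973 ± 418 FPKM in Cpt2PparaDKO and 2032 ± 276 in Control; SD, n = 4 each) and Tat (1185 ± 101 and 1446 ± 522 in the same groups) took the first 2 places in all 5 groups. Sik1 (19.7 ± 4.62 FPKM in Cpt2PparaDKO and 13 ± 4.56 in Control) and Foxo1 (3.72 ± 1.69 and 7.76 ± 3.65) took the last 2. G6pc held ranks 6 to 8 in the mutant groups, at 43.7 ± 24.4 FPKM in Cpt2PparaDKO, 56.4 ± 26.8 in TKO, 81.8 ± 42.6 in Cpt2KO and 182 ± 41.7 in Cpt1DKO, against rank 4 in Control at 233 ± 49.3 FPKM. Across groups the lowest mean of Pck1, Pcx, G6pc, Slc37a4, Gcgr, Creb3l3 and Foxo1 was in Cpt2PparaDKO, of Fbp1 in TKO, of Tat in Cpt2KO and of Sik1 in Control. Of the 40 steps between neighbouring groups in these orders, 4 were called: Cpt2PparaDKO below TKO for Pcx, Cpt2PparaDKO below Cpt2KO and TKO below Control for Slc37a4, and Cpt2PparaDKO below Control for Creb3l3.

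Within groups, some of the genes varied together from library to library. Over the 20 libraries, deviations of log2 CPM from the group mean had a Pearson r of 0.865 between Pck1 and Fbp1, 0.818 between Fbp1 and Gcgr, 0.768 between Gcgr and Creb3l3 and 0.724 between Slc37a4 and Tat. Foxo1 ran the other way to Gcgr (r = -0.535). These are descriptions over libraries that share depth, RNA and tissue differences, and they include Cpt2PparaDKO 4, the lowest library of its group in Pck1, Fbp1, Gcgr and Creb3l3 and the highest in Foxo1. The spread itself differed by gene and group: highest over lowest library was 5.79 for Fbp1 in Cpt2PparaDKO and 1.12 in Control, 5.35 for Tat in Cpt2KO and 1.21 in Cpt2PparaDKO, and 4.46 for G6pc in Cpt2PparaDKO and 1.70 in Control.

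Counts over the surrounding lists are read against the shares of all genes called in the same comparisons: 2.44% higher and 3.10% lower in Cpt1DKO, 16.2% and 17.2% in Cpt2KO, 13.0% and 14.4% in TKO and 14.9% and 17.6% in Cpt2PparaDKO, against Control. Other enzymes and carriers of gluconeogenesis were called both ways in Cpt1DKO, Cpt2KO and TKO, and mostly lower in Cpt2PparaDKO. Of 24 tested genes of that list, 8 were higher and 7 lower in Cpt2KO, 4 and 6 in TKO, 2 and 12 in Cpt2PparaDKO and 1 and 1 in Cpt1DKO, against Control. The shares called were 62.5% in Cpt2KO, 41.7% in TKO, 58.3% in Cpt2PparaDKO and 8.33% in Cpt1DKO, with median log2 fold changes of 0.11, -0.12, -0.51 and 0.07. Pck2, the mitochondrial counterpart of Pck1, rose while Pck1 fell: it averaged 15.8 ± 4.66 CPM in Cpt2KO, 12.3 ± 8.06 in TKO and 25.4 ± 9.22 in Cpt2PparaDKO, against 4.66 ± 1.19 in Control (SD, n = 4 each), with log2 fold changes of 1.77 (adjusted p = 0.0074), 1.41 (0.032) and 2.45 (0.000791). At these levels Pck2 remained far below Pck1 in counts. Slc2a2, the glucose transporter GLUT2 of the hepatocyte membrane, fell in all 4 mutant groups, to 168 ± 42.7 CPM in Cpt2PparaDKO, 141 ± 19.2 in TKO, 128 ± 28.9 in Cpt2KO and 251 ± 94.8 in Cpt1DKO, against 465 ± 37.5 in Control (adjusted p at most 0.0245). Sds, which makes pyruvate from serine, fell in Cpt2KO (log2 fold change -2.41, SE 0.72, adjusted p = 0.0163), TKO (log2 fold change -2.03, SE 0.71, adjusted p = 0.043) and Cpt2PparaDKO (log2 fold change -2.14, SE 0.71, adjusted p = 0.0295), the last call being lost without the female-pattern libraries (-1.89, adjusted p = 0.0965).

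Against Cpt2KO, Cpt2PparaDKO had 0 of these 24 genes higher and 12 lower, with 12.1% of all genes higher and 12.2% lower, a median of -0.39 beside 0.01 over all genes. Fbp2, the muscle form of the bisphosphatase, and Gpd1, which links glycerol to the pathway, had the largest falls there among the called genes. Fbp2 averaged 0.266 ± 0.293 CPM in Cpt2PparaDKO and 3.76 ± 0.79 CPM in Cpt2KO (log2 fold change -3.80, SE 0.67, adjusted p = 0.000351; without the female-pattern libraries -4.71, adjusted p = 0.000149), and Gpd1 averaged 136 ± 34.4 CPM in Cpt2PparaDKO and 346 ± 104 CPM in Cpt2KO (log2 fold change -1.34, SE 0.24, adjusted p = 0.00032). Against Control, Fbp2 was higher in Cpt2KO (log2 fold change 2.74, SE 0.65, adjusted p = 0.00265), where Fbp1 was lower, though at a level far under it.

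Of 12 opposing enzymes of glycolysis, 0 were higher and 2 lower in Cpt1DKO, 0 and 4 in Cpt2KO, 0 and 5 in TKO and 2 and 4 in Cpt2PparaDKO, against Control. In Cpt2KO the 33.3% called was at the share of all genes, 33.4%. Cpt2PparaDKO was higher than Control in Pkm (log2 fold change 1.18, SE 0.15, adjusted p = 7.33e-06), the pyruvate kinase form of most other tissues, and lower than Control in Pfkfb1 (log2 fold change -1.28, SE 0.25, adjusted p = 0.000598), the liver form of the enzyme that sets fructose-2,6-bisphosphate. Pfkfb1 was also called lower in Cpt2KO against Control (log2 fold change -1.41, adjusted p = 0.000234). It averaged 23.2 ± 7.81 CPM in TKO and 56.9 ± 13.4 in Cpt1DKO, against 46.1 ± 11.6 in Control (SD, n = 4 each). Against Cpt2KO, Cpt2PparaDKO had 4 of the 12 higher and 0 lower.

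**Figure D4:**
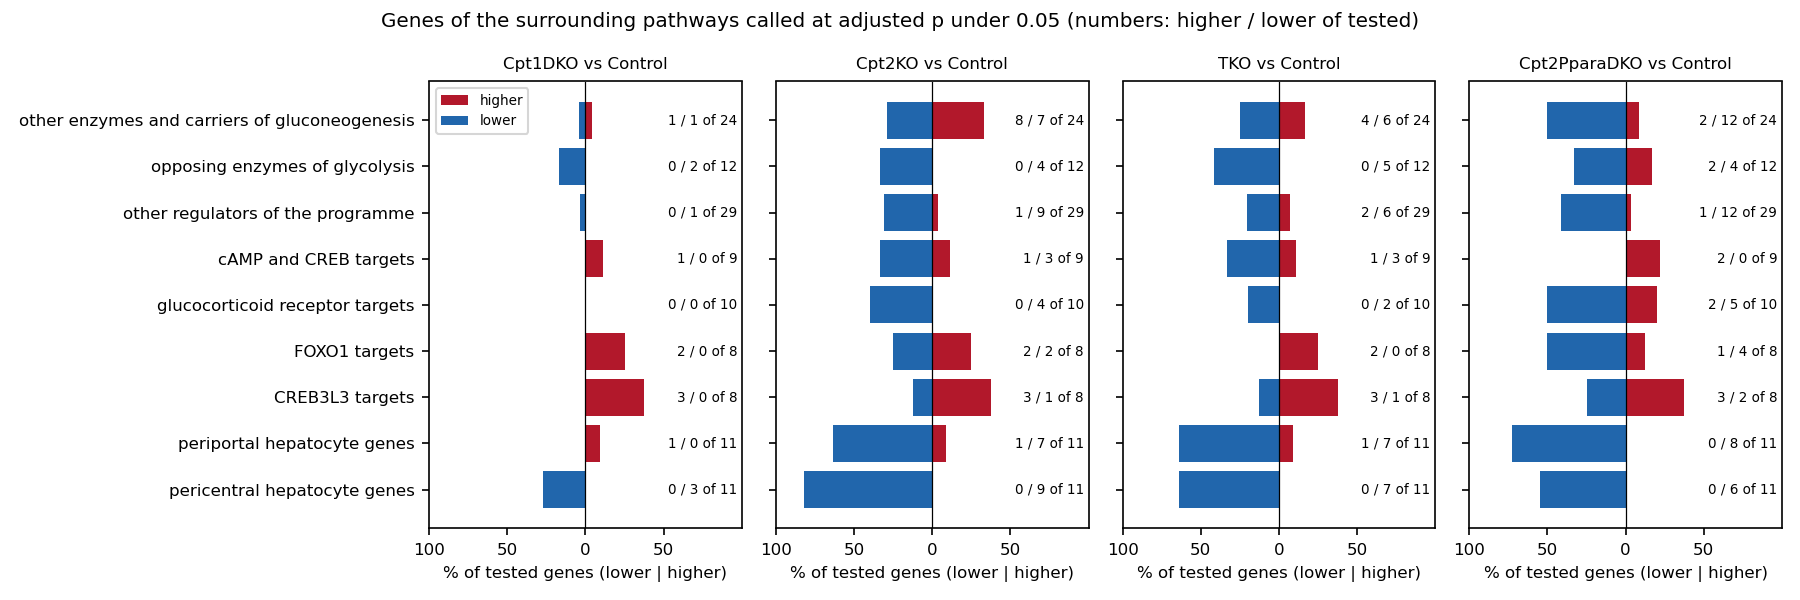
Share of the tested genes of 9 surrounding gene lists that were called higher (red, to the right) or lower (blue, to the left) in each mutant group against Control; numbers give higher / lower of tested. Other enzymes and carriers of gluconeogenesis have 8 higher and 7 lower of 24 in Cpt2KO and 2 higher and 12 lower in Cpt2PparaDKO.

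Of 29 other regulators of the programme, 0 were higher and 1 lower in Cpt1DKO, 1 and 9 in Cpt2KO, 2 and 6 in TKO and 1 and 12 in Cpt2PparaDKO, against Control. The shares called, 34.5% in Cpt2KO, 27.6% in TKO and 3.45% in Cpt1DKO, were near those of all genes (33.4%, 27.4% and 5.55% in the same comparisons), and that in Cpt2PparaDKO was 44.8% beside 32.5%. Nr0b2, the repressor SHP, had the largest fall, to 1.19 ± 1.87 CPM in Cpt2KO and 2.15 ± 1.94 CPM in TKO, against 34.8 ± 9.61 CPM in Control (SD, n = 4 each, log2 fold changes -4.96 and -4.0, adjusted p = 0.000367 and 0.00145). Nr0b2 libraries of Cpt1DKO (7.5 ± 3.23 CPM) and Cpt2PparaDKO (9.36 ± 4.08 CPM) were also all below Control. The Cpt1DKO difference was not called (-2.22, adjusted p = 0.0847), and was called without the female-pattern libraries (adjusted p = 0.049). Klf15, a fasting factor of amino acid and glucose metabolism, fell in Cpt2KO (log2 fold change -1.34, SE 0.24, adjusted p = 0.000287) and Cpt2PparaDKO (log2 fold change -1.08, SE 0.24, adjusted p = 0.00198). Its TKO libraries were also all below Control, at 159 ± 24.7 CPM against 295 ± 69.6 CPM (SD, n = 4 each). Ppargc1a, the coactivator of the pathway, was not called against Control in any mutant group, with log2 fold changes of -0.90 in Cpt2PparaDKO, -0.22 in TKO, -0.50 in Cpt2KO and 0.76 in Cpt1DKO and standard errors of 0.53. The Ppargc1a value in Cpt2KO without the female-pattern libraries was -1.28, adjusted p = 0.0641. Nr3c1, the glucocorticoid receptor, was called lower over all libraries only in Cpt2KO (log2 fold change -0.47, SE 0.16, adjusted p = 0.0262). Uncalled differences from Control of similar size were seen for TKO (-0.43, adjusted p = 0.0505) and Cpt1DKO (-0.46, adjusted p = 0.0902). That of Cpt2PparaDKO was -0.31 (adjusted p = 0.135). The Nr3c1 difference in TKO was called without the female-pattern libraries (-0.42, adjusted p = 0.0373). Cpt2PparaDKO was higher than Cpt2KO in Nr0b2 (log2 fold change 3.07, SE 0.84, adjusted p = 0.0138) and lower in Cebpb (log2 fold change -1.28, SE 0.29, adjusted p = 0.00299).

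Among targets of the set's upstream factors, calls went both ways. Of 9 tested cAMP and CREB targets, 1 was higher and 3 lower in Cpt2KO and in TKO, 2 higher and 0 lower in Cpt2PparaDKO, and 1 higher and 0 lower in Cpt1DKO. Nr4a1, an immediate early gene of cAMP, fell in Cpt2KO (log2 fold change -1.84, SE 0.50, adjusted p = 0.00941) and TKO (log2 fold change -2.59, SE 0.52, adjusted p = 0.00145) and was higher in Cpt2PparaDKO than in Cpt2KO (log2 fold change 2.59, SE 0.51, adjusted p = 0.00131); its Control libraries ranged from 2.7 to 35.2 CPM. Pde4d, a cAMP phosphodiesterase, rose in Cpt1DKO, Cpt2KO, TKO and Cpt2PparaDKO (log2 fold changes 0.85, 1.53, 1.58 and 1.10). Of 10 glucocorticoid receptor targets, 0 were higher and 4 lower in Cpt2KO, 0 and 2 in TKO, 2 and 5 in Cpt2PparaDKO and 0 and 0 in Cpt1DKO. In TKO the 20% called was below the 27.4% over all genes. Tsc22d3, the leucine zipper protein GILZ, fell in Cpt2KO (-2.15), TKO (-1.56) and Cpt2PparaDKO (-1.73).

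Of 8 FOXO1 targets, 2 were higher and 0 lower in Cpt1DKO, 2 and 2 in Cpt2KO, 2 and 0 in TKO and 1 and 4 in Cpt2PparaDKO, against Control. Igfbp1, a binding protein of insulin-like growth factors that insulin represses, was higher in every mutant group, at 1165 ± 531 CPM in Cpt2PparaDKO, 611 ± 258 in TKO, 796 ± 595 in Cpt2KO and 1475 ± 1323 in Cpt1DKO, against 158 ± 33.3 in Control (SD, n = 4 each; adjusted p at most 0.0473). In TKO the Igfbp1 call was lost without the female-pattern libraries (adjusted p = 0.0574). Irs2 was not called in any of them over all libraries, and was called higher without the female-pattern libraries in Cpt1DKO (0.95, adjusted p = 0.00713) and Cpt2PparaDKO (0.77, adjusted p = 0.0127). Mttp, which loads lipid onto lipoproteins, was called higher than Control in Cpt2KO (0.73) and Cpt1DKO (0.51, adjusted p = 0.0208). Its mean in TKO was 560 ± 70.5 CPM, against 380 ± 26.2 in Control (SD, n = 4 each). It was lower in Cpt2PparaDKO than in Cpt2KO (log2 fold change -1.62, SE 0.13, adjusted p = 6.75e-09). Of 8 CREB3L3 targets, 3 were higher in each mutant group against Control and 2 were lower in Cpt2PparaDKO, 1 in TKO, 1 in Cpt2KO and 0 in Cpt1DKO. Cidec, a lipid droplet protein, was among the higher ones in all 4 groups (log2 fold changes 2.22 in Cpt2PparaDKO, 4.27 in TKO, 4.30 in Cpt2KO and 3.63 in Cpt1DKO). Against Cpt2KO, Cpt2PparaDKO had 1 of the 8 higher and 4 lower, with the largest falls in Fgf21, a fasting hormone of the liver (log2 fold change -3.16, SE 0.51, adjusted p = 0.000275), and Cidec (log2 fold change -2.09, SE 0.21, adjusted p = 2.1e-07), beside the fall of Creb3l3 itself.

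Gluconeogenesis is concentrated in periportal hepatocytes, so genes of both ends of the lobule were counted. Of 11 periportal genes, 1 was higher and 7 lower in Cpt2KO and in TKO, 0 and 8 in Cpt2PparaDKO and 1 and 0 in Cpt1DKO. Of 11 pericentral genes, 0 were higher and 9 lower in Cpt2KO, 0 and 7 in TKO, 0 and 6 in Cpt2PparaDKO and 0 and 3 in Cpt1DKO. The periportal gene Hal, of histidine breakdown, fell in Cpt2KO (log2 fold change -3.42, SE 0.61, adjusted p = 0.000387), and the pericentral gene Gulo, the last enzyme of vitamin C synthesis, fell as well (log2 fold change -2.64, SE 0.23, adjusted p = 5.8e-08). The periportal share called was 72.7% in each of Cpt2KO, TKO and Cpt2PparaDKO and 9.09% in Cpt1DKO. The pericentral share was 81.8% in Cpt2KO, 63.6% in TKO, 54.5% in Cpt2PparaDKO and 27.3% in Cpt1DKO, all above the shares of all genes.

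The genes whose profiles over the 20 libraries lay nearest to each of the 10 were found by the smallest root mean square difference of centred log2(CPM + 0.5), among 9374 genes. Nearest to Pck1 were Aldh8a1 (0.26), Upb1 and Mylk, and to Fbp1 Aldh4a1 (0.26), Ttc36 and Sema4g. Nearest to Pcx were Fpgs (0.20), Bbox1 and Tln2, and to Slc37a4 Kmo (0.24), Alb and Cdip1. Creb3l3 had the closest match, Ddt (0.14), followed by Acads and Etfb. For G6pc (Tedc2, 0.58), Tat (Mpzl2, 0.45) and Foxo1 (Rad54l2, 0.31) the nearest gene lay further away. Matches of Gcgr and Sik1 are not named, because their highest and lowest group means of log2 CPM differed by less than 1.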

How the data were processed

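Liver RNA of 5 groups with 4 libraries each was sequenced. The table the authors deposited holds raw read counts, 1 row per gene and 1 column per library, per the file headers. The authors' deposited FPKM values equalled count over gene length times 1 constant per library and were used here only for the order of levels between genes. Alignment tool and build are HISAT2 and GRCm39 per the submitters' processing notes. How reads were counted, with which strand setting and annotation, was not given in the sources used here, so reads shared by overlapping or antisense genes cannot be told apart. The authors' tables of their own comparisons were not used here.

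After filterByExpr with a minimum count of 10 and TMM scaling, genes were fitted in 1 quasi-likelihood model of all 20 libraries (edgeR 4.0.16, R 4.3.3, robust), with Benjamini-Hochberg adjustment over 15669 genes in each of 11 comparisons, two-sided. An adjusted p under 0.05 made a call. The fit was tested on simulated data. The standard error is the absolute log2 fold change over the square root of F, and a pseudocount of 0.5 CPM was used for profiles. Alternatives were DESeq2 1.42.0, RLE scaling, no filter, the compared groups alone, the replicate number as a block, leaving out each replicate, and leaving out the 2 female-pattern libraries (for named genes of the surrounding lists, chosen after seeing the data). No pair of libraries agreed within sampling noise (chi-square per degree of freedom at least 12.5).

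The 10 genes and the gene lists were chosen with earlier results of these data known. From each list, at most the 2 largest rises and 2 largest falls of a comparison were named, with a few genes chosen for their role. Promoter windows are RefSeq's on GRCm38.p6; coordinates of genes are those of the count table. Some results of the surrounding lists are not reported here.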

Additional observations from a re-analysis of the deposited data

Results flagged for a closer look

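In 5 of the 50 groups of 4 values (10 genes in 5 groups) 1 library stood apart from the other 3 by Dixon's criterion, where chance alone gives about 1 in 20. Pcx was 1157 CPM in TKO 2, and the nearest other TKO library had 724 CPM. Gcgr was 122 CPM in Cpt2PparaDKO 4, and the nearest other library of the group had 291 CPM. Creb3l3 was 890.3 CPM in Cpt2KO 2, and the nearest other had 638 CPM. Foxo1 was 54.8 CPM in Cpt2PparaDKO 4, against 26.4 CPM in the nearest other, and 116 CPM in Control 3, against 58.6 CPM in the nearest other. Cpt2PparaDKO 4 is a female-pattern library. Their causes were not tested.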

How the results depend on the processing

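Of 994 comparisons of a gene's log2 fold change with its value under another setting, 889 kept direction and side of the threshold, 60 lost the call, 30 gained one and 15, none of them called, changed sign. Without the female-pattern libraries the sign changed for Gcgr in Cpt2KO against Control (0.080, adjusted p = 0.68) and Pck1 in Cpt2PparaDKO against Cpt2KO (0.26). Leaving out 1 library changed signs within these ranges: in Cpt1DKO against Control -0.16 to 0.011 for Gcgr and -0.036 to 0.22 for Pcx; in Cpt2KO against Control -0.14 to 0.089 for Gcgr; in TKO against Control -0.57 to 0.055 for Foxo1; in Cpt2PparaDKO against Cpt2KO -0.32 to 0.16 for Pck1; and in Cpt2KO against Cpt1DKO -0.070 to 0.145 for Gcgr, -0.38 to 0.049 for Sik1 and -0.033 to 0.19 for Creb3l3.

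Without the female-pattern libraries, calls among the 10 genes were 1 in Cpt1DKO and 8 in Cpt2KO against Control, 6 in Cpt2KO and 4 in TKO against Cpt1DKO and 5 in Cpt2PparaDKO against TKO, and calls over all genes were 1581 in Cpt1DKO against Control, 16 in TKO against Cpt2KO, 1391 in TKO against Cpt1DKO and 973 in the interaction. Calls over all genes in Cpt2KO were then 5692 against Control and 3227 against Cpt1DKO, and in Cpt2PparaDKO 3415 against TKO. In the fit of the compared groups alone, calls among the 10 genes were 1 in Cpt1DKO against Control and 4 in TKO against Cpt1DKO, and calls over all genes 1442 in Cpt1DKO against Control, 877 in TKO against Cpt1DKO, 2495 in Cpt2PparaDKO against Cpt2KO, 1344 in Cpt2KO against Cpt1DKO and 5 in TKO against Cpt2KO. DESeq2 called 4 of the 10 genes in Cpt2KO against Cpt1DKO, where it called 2755 over all genes. It also called 1443 genes in Cpt1DKO against Control, 54 in TKO against Cpt2KO, 1266 in TKO against Cpt1DKO and 941 in the interaction. Without the count filter, calls among the 10 genes were 2 in Cpt2PparaDKO against Cpt2KO, and 1 in Cpt2KO and 1 in TKO against Cpt1DKO. Calls over all genes were then 3217, 1646 and 554 in the same order. With edgeR's full fit the calls over all genes were 869 in Cpt1DKO against Control, 3822 in Cpt2PparaDKO against Cpt2KO, 2212 in Cpt2KO and 729 in TKO against Cpt1DKO, 8 in TKO against Cpt2KO and 423 in the interaction. The causes were not tested.

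Leaving out 1 library gave 288 to 1188 calls over all genes in Cpt1DKO against Control, 1192 to 2517 in Cpt2KO and 278 to 898 in TKO against Cpt1DKO, 3 to 10 in TKO against Cpt2KO and 178 to 585 in the interaction. Calls among the 10 genes were then 2 to 4 in Cpt2PparaDKO against Cpt2KO, 1 to 4 in Cpt2KO and 1 to 3 in TKO against Cpt1DKO, and 3 to 5 in Cpt2PparaDKO against TKO. For Cpt2PparaDKO, calls over all genes were 2997 to 4075 against Cpt2KO and 2286 to 3192 against TKO. The same numbers did not pair libraries: 6 of 40 same-number pairs had a correlation of deviations over 0.1 (-0.233 to 0.285), and 4 of 20 libraries correlated best with their own number. With the replicate block, 4 of the 10 genes were called in Cpt2KO against Cpt1DKO, where 2081 were called over all genes. Over all genes, 5 were then called in TKO against Cpt2KO. Of 828 counts over the surrounding lists under other settings, 130 moved by over 1.5 times. RLE scaling moved the median of all genes by at most 0.02. Spread between the 4 libraries of a group limits what can be seen: the 95% interval of G6pc in Cpt1DKO against Control ran from -1.23 to 0.49.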
